A study of Mus musculus with 2 samples.

Results

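Pax7 and Pax3 encode paired-box transcription factors, and their loci were described in open-chromatin maps of mouse calf muscle. Each locus was taken as the gene body in GENCODE M21 plus 100000 bp on each side, in the mm10 build. These are 2 of 21853 protein-coding genes with an annotated coding transcript on chromosomes 1 to 19, X and Y. The Pax7 window held 30 and 29 of the 123255 and 150088 peaks of replicates 1 and 2, and the Pax3 window held 10 and 7. Values are given for replicate 1 and then replicate 2 throughout.

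The maps were made by DNase-seq, in which DNase I cuts DNA that is free of nucleosomes, so that cut ends pile up at open sites. Gastrocnemius, the main calf muscle, came from male B6CASTF1/J mice, first-generation hybrids of the C57BL/6J and CAST/EiJ strains, aged 10 days, in 1 group of 2 samples that the labels number as biological replicates. The labels name 3 males for each sample and give both samples the same donor record. Whether the libraries share animals is not stated there, so the spread between them may be technical. There was no treatment or control group, so every value below is a description over 2 libraries and no test of a condition was possible. The sample was whole tissue, in which fewer cells of a type and less open DNA per cell cannot be told apart. Alleles of the parent strains were not analysed here.

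PAX7 and PAX3 bind DNA through a paired domain and a homeodomain and act early in the muscle lineage. PAX7 marks satellite cells, the stem cells that lie beneath the sheath of the myofibre and renew postnatal muscle, and is needed to maintain them. PAX3 acts mainly in the embryo, in the dermomyotome, in muscle precursors that migrate into the limb, and in the neural crest that gives rise to melanocytes and Schwann cells. In mice, satellite cells of most hindlimb muscles keep little Pax3 after birth.

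The sites on which the description turns are shown first, as reference sequence of mm10 (RefSeq GRCm38.p6), written 5′ to 3′ on the minus strand, which is the strand of both genes. Capitals mark bases inside a deposited footprint in both libraries. A footprint is a short stretch of protected bases within an open site. The first 4 are among the highest sites of the Pax7 window and the last is the only site of the Pax3 window that stood in the stricter peak set of both libraries.
Pax7, 25322 bp upstream of the start, chr4:139858761-139858940, intergenic: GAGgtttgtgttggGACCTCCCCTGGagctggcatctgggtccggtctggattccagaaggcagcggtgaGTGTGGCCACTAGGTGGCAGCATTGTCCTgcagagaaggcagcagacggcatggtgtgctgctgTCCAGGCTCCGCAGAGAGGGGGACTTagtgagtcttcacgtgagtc
Pax7, intron 4, chr4:139821461-139821760: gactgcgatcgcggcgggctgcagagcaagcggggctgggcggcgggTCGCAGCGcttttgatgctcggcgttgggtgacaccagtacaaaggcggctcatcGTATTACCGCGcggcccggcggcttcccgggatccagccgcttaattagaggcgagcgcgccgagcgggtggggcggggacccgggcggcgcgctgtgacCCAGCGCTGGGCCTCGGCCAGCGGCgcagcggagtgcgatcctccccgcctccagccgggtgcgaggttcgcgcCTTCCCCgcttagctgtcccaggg
Pax7, intron 7, chr4:139771181-139771380: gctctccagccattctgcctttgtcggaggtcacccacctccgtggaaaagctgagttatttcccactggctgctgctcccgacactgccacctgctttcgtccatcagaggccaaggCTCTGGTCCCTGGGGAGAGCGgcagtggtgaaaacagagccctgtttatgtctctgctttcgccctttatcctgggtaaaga
Pax7, intron 8, chr4:139747381-139747600: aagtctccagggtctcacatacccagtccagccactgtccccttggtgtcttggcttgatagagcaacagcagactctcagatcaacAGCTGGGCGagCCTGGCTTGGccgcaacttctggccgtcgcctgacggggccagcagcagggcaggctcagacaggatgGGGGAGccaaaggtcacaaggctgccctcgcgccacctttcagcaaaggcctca
Pax3, 188204 bp downstream of the start, chr1:78008841-78009020, intergenic: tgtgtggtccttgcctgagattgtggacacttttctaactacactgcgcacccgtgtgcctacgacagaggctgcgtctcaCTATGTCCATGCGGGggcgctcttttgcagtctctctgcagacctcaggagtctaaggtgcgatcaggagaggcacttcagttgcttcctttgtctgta

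Pax7 lies on the minus strand of chromosome 4, at positions 139737062 to 139833528, and its window spans 296467 bp. Pax3 lies on the minus strand of chromosome 1, at positions 78101267 to 78197134, and its window spans 295868 bp. The windows are thus of nearly equal length. Each gene has coding transcripts from 2 annotated starts, at 139833528 and 139833007 for Pax7 and at 78197134 and 78196838 for Pax3. Peak values are the deposited depth-scaled signal. Every value was a whole multiple of 1 step, 0.00544 and 0.00587, so the tags behind a peak can be counted; an exact Poisson interval on them covers counting error only. The median peak of the whole library was 0.729 and 0.716, which is 134 and 122 tags.

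**Figure D1:**
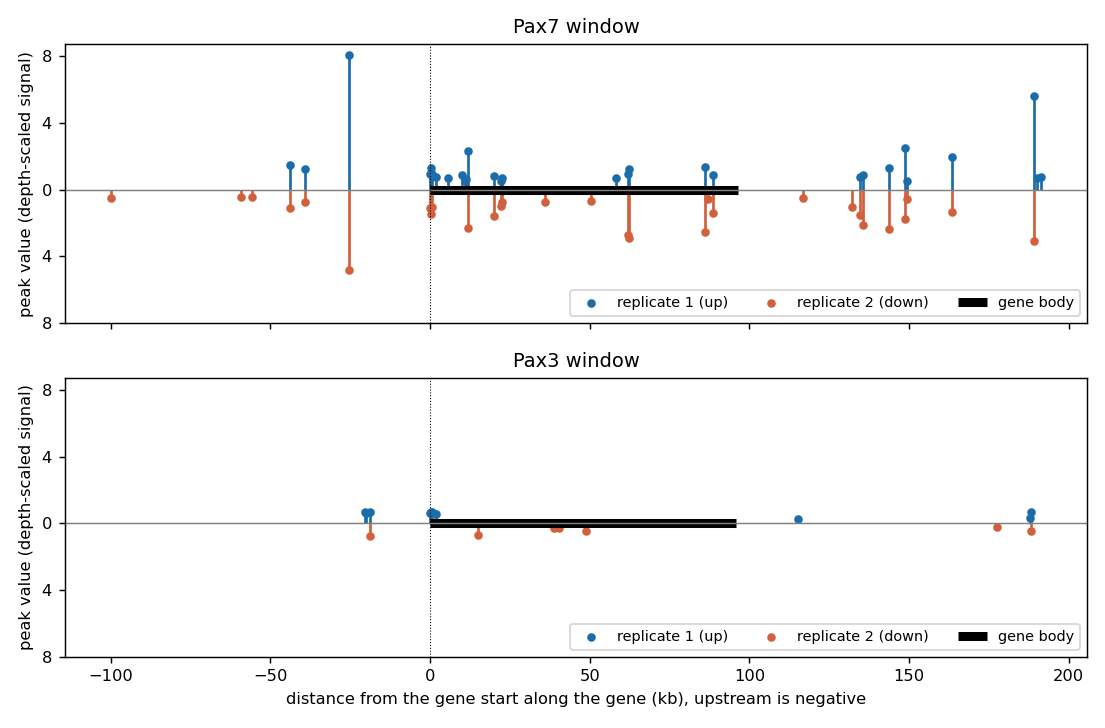
Peaks in the Pax7 window (upper panel) and the Pax3 window (lower panel), by distance from the gene start in kb, with the deposited depth-scaled signal of replicate 1 drawn upward and of replicate 2 downward on the same axis. The Pax7 window reaches 8.10 and 4.82 at the site 25 kb upstream, whereas no Pax3 peak passes 0.712 and 0.745.

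The Pax7 promoter was open in both libraries and the Pax3 promoter in replicate 1 only. An open promoter had at least 1 peak within 500 bp of a coding start, and took the value of the highest one. Of all protein-coding genes, 67.8% were open in replicate 1, 68.0% in replicate 2 and 66.0% in both. The Pax7 promoter had 1.32 and 1.46, a mean of 1.39 ± 0.0948 (SD, n = 2), from 243 and 248 tags. The intervals, 1.16 to 1.5 and 1.28 to 1.65, overlapped. The promoter of Pax3 had 0.680 in replicate 1, from 125 tags with an interval of 0.566 to 0.810, and no peak in replicate 2. In the authors' stricter peak set Pax7 was open in both libraries, as were 61.8% of all genes, and Pax3 in neither. The Pax7 value stood above 45.3% and 44.9% of all protein-coding promoters, and the Pax3 value above 38.0% in replicate 1. Promoters with no peak ranked lowest here, so any open promoter stood above all closed ones. Over all promoters open in both libraries the median of the mean value was 5.59, against 1.39 for Pax7.

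A set of 3 sites made up the Pax7 promoter, and each was found in both libraries. The highest, at chr4:139833121-139833340, was centred 298 bp inside the gene, and its lowest FDR, the authors' per-base false discovery rate, was 2.18e-08 and 7.14e-06. The second, at chr4:139833341-139833623, spans the first start and had 0.968 and 1.10. It adjoins the highest site with no base between them, and in replicate 2 every base of both was listed. The third, at chr4:139832527-139833040, had 0.957 and 1.04. Only its replicate 2 peak reached the second start, and that peak was not in the stricter set. All 3 sites were higher in replicate 2 by less than the counting intervals. RefSeq also places the first exon of Gm46873, a long noncoding RNA on the opposite strand, over the first start and part of the highest site. Neither the highest nor the second site can thus be given to either gene alone. Of the promoter window, 1007 and 832 of 1522 bp were listed, that is, had an FDR under 0.05, and 7 and 6 footprints lay in it. The stretch before the first start, chr4:139833531-139833623, held no footprint found in both libraries, and is shown as the open sequence nearest to the start.
Pax7 upstream of the start: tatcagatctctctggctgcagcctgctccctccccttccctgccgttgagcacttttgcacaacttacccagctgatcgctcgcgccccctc

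At Pax3, replicate 1 had 3 promoter peaks and replicate 2 none. The replicate 1 peaks had 0.680, 0.658 and 0.625, from 125, 121 and 115 tags, and none of them was in the stricter set. Their lowest FDR values were 0.00593, 0.00639 and 0.0237, against 2.18e-08 at the Pax7 promoter in the same library. In replicate 1, 642 of the 1297 bp of the promoter window were listed and 7 footprints lay there, against 0 bp and 0 footprints in replicate 2. The peak lists hold called peaks only, so no upper limit can be set for replicate 2. Of 587 promoters whose replicate 1 value was within 0.1 of that of Pax3, 530, or 90.3%, were open in replicate 2. Pax3 was 1 of 406 promoters open in replicate 1 only, beside 432 open in replicate 2 only.

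Both promoters were less open than most promoters of like CpG content. The ratio of observed to expected CpG in the 1 kb around the start was 0.638 for Pax7 and 0.669 for Pax3. Among 4752 genes within 0.1 of the Pax7 ratio, 93.9% were open in both libraries, with median values of 3.98 and 5.53; 19.9% and 20.4% of them stood below Pax7. Among 5226 genes within 0.1 of the Pax3 ratio, 95% were open in both, and 1.86% in 1 library only, as Pax3 was. Of these, 8.5% stood below Pax3 in replicate 1.

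**Figure D2:**
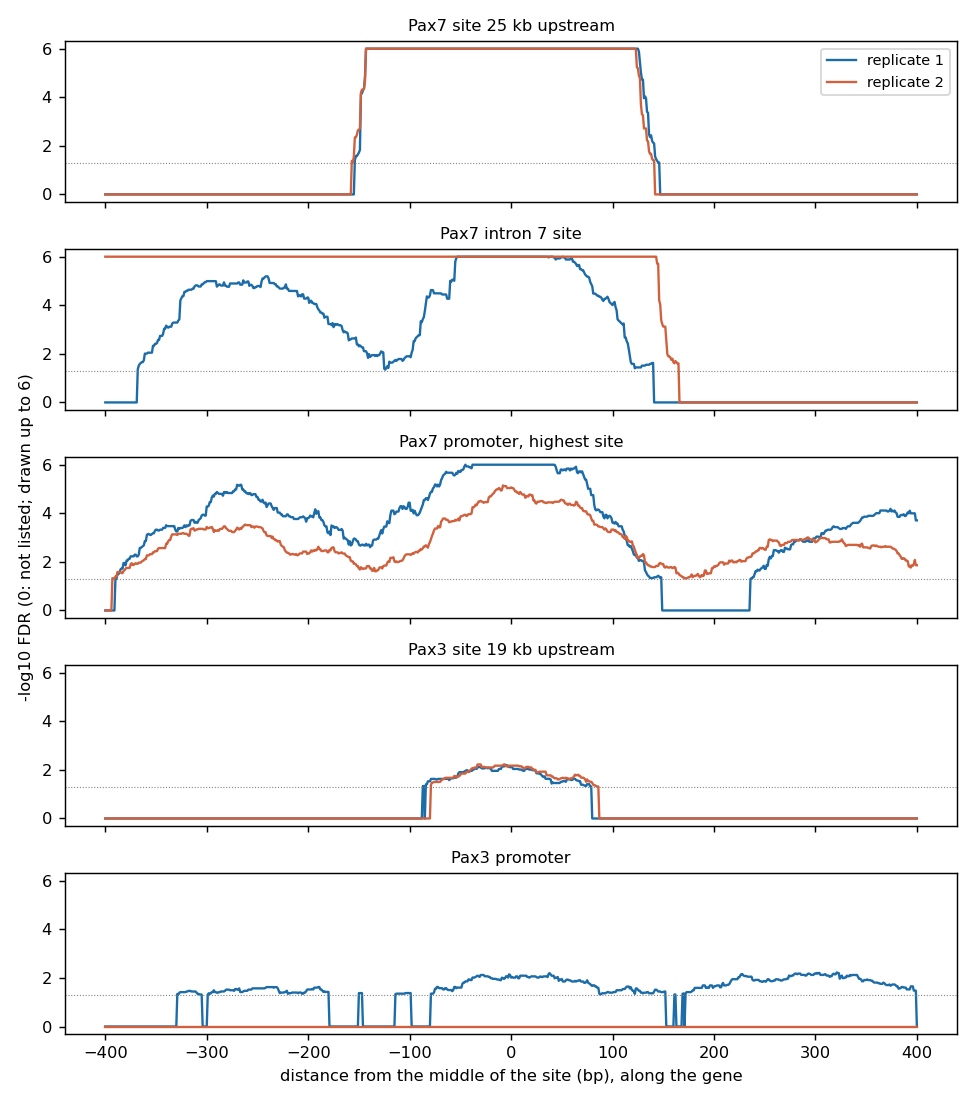
Deposited per-base FDR as −log10, drawn up to 6 with 0 for bases not listed, against distance in bp from the middle of 3 Pax7 sites and 2 Pax3 sites, for replicate 1 (blue) and replicate 2 (orange); the dotted line is the listing limit of 0.05. The Pax7 sites are listed in both libraries, and the Pax3 promoter in replicate 1 only.

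The windows as a whole, promoters included, also differed between the loci. The Pax7 window held 10.1 and 9.78 peaks per 100 kb and the Pax3 window 3.38 and 2.37, against medians of 7.28 and 8.66 over the windows of all protein-coding genes. Pax7 stood above 67.2% and 56.7% of those windows, and Pax3 above 22.8% and 15.3%. Listed bases were counted without use of the peak lists, although both come from the same libraries. They covered 2.51% and 2.70% of the Pax7 window (mean 2.61 ± 0.139, SD, n = 2). In the Pax3 window they covered 0.729% and 0.384% (mean 0.556 ± 0.244), against medians of 2.33% and 2.75% over all windows. By this measure Pax7 lay near the middle, above 53.5% and 49.0% of windows, and Pax3 near the low end, above 18.8% and 12.7%. The cover of Pax7 was 3.44 and 7.04 times that of Pax3.

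Overlapping peaks of the 2 libraries were joined into sites, with an overlap of at least 1 bp. The Pax7 window held 37 sites, of which 21, or 56.8%, were found in both libraries, close to the 54.0% of all sites of the genome. The Pax3 window held 15, of which 2, or 13.3%, were found in both. All Pax3 sites were low: peak values were 0.266 to 0.712 in replicate 1 and 0.211 to 0.745 in replicate 2, and only 0 and 1 of them stood above the library median. Across the genome, 26.7% of the 96673 sites at or below 0.745 were shared, against 88.1% of the 77458 sites above it. In the Pax7 window 21 and 20 peaks stood above the library median, with a range of 0.522 to 8.10 and 0.423 to 4.82. The 8 Pax7 sites of replicate 1 only had 0.587 to 0.908 and the 8 of replicate 2 only 0.423 to 1.04, so the unshared sites were among the low ones.

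The highest site of the Pax7 window, 25322 bp upstream of the start, had 8.10 and 4.82, from 1489 and 822 tags, with intervals of 7.69 to 8.52 and 4.50 to 5.17. It stood above 97% and 92.1% of all peaks of its library and was the first sequence printed above. Its middle holds the core of the motif of CTCF, the zinc-finger protein that stops cohesin and often marks the ends of chromatin loops. A further pair of upstream sites, 39262 and 43942 bp before the start, also held this core, with 1.27 and 0.710 at the nearer and 1.46 and 1.07 at the farther. These 3 were the only upstream sites found in both libraries. In all 3 the core lay inside, or within 5 bp of the edges of, a footprint of 22 to 33 bp in each library; at the farthest site the replicate 1 footprint covered only part of the core. The 3 matches are shown with 15 bp on each side and the core in capitals, the first on the minus strand and the others on the plus strand.
CTCF core at chr4:139858853-139858864, minus strand: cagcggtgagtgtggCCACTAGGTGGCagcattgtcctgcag
CTCF core at chr4:139872779-139872790, plus strand: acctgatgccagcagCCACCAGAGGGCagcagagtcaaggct
CTCF core at chr4:139877457-139877468, plus strand: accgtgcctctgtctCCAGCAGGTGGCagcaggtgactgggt

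Inside Pax7, listed bases covered 4.34% and 4.11% of the gene body, against 1.12% and 1.34% of the upstream flank and 2.13% and 2.71% of the downstream flank. The gene body, with 4183 and 3965 listed bp, includes the part of the promoter window after the start. That window, which also reaches upstream, held 1007 and 832 listed bp. Beside the 3 promoter sites, 8 intron sites were found in both libraries. The highest in replicate 1, in intron 4 and 11918 bp from the start, had 2.31 and 2.30, and held 7 and 4 footprints. Its sequence was 72.7% G and C. In intron 7, adjacent sites 62248 and 61988 bp from the start had 1.25 and 2.92 and 0.957 and 2.68. In intron 8, a site 86038 bp from the start had 1.36 and 2.54. Another, 88572 bp from the start, had 0.892 and 1.40 and held TTGGCA, 1 arm of the NFI site, at a footprint of each library. The intron 7 and 8 sites were thus higher in replicate 2 beyond their counting intervals, and the intron 4 site was level.

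Downstream of Pax7, the highest site, 189308 bp from the start at chr4:139644121-139644320, had 5.6 and 3.08. It lies in an exon of Aldh4a1, a mitochondrial aldehyde dehydrogenase of proline breakdown, and so within a neighbouring gene. An intergenic site 148708 bp from the start had 2.51 and 1.75. Between these, a site in the untranslated end of Tas1r2, a subunit of the sweet taste receptor, had 1.97 and 1.35 and held the fourth CTCF core of the window. Sites were placed in a window by position alone. The nearest peak beyond the low border, 492 bp outside it, had 3.83 and 1.96, and the peaks just inside had 0.789 and 3.08. Beyond the high border the nearest peaks had 0.413 and 0.481, with 1.46 and 0.499 just inside.

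At Pax3 the pair of sites found in both libraries lay outside the gene. The site 18843 bp upstream, chr1:78215891-78216064, had 0.669 and 0.745. GENCODE has no gene there, whereas RefSeq places it in the last exon of Gm2102, a predicted gene. The site 188204 bp downstream, printed above, had 0.707 and 0.440, with a lowest FDR of 2.14e-07 and 1.72e-05. Within the gene body no site was shared. Replicate 2 had 4 sites in intron 4, with 0.252 to 0.698. Replicate 1 had 3 peaks in the gene body, 1 exon site at 0.533 and otherwise promoter peaks. A further promoter peak of replicate 1 lay just upstream of the start. Listed bases covered 0.629% and 0.627% of the gene body, nearly the same share, although mostly at different places. At 1 of the intron 4 sites, 29 bp were listed in replicate 1 as well. Over the whole window 451 bp were listed in both libraries, a Jaccard index of 0.159, against 5196 bp and 0.507 for Pax7. The nearest peaks outside the window were higher than any inside on the low side, 1.52 and 1.60, and had 0.799 and 0.358 on the high side. Just inside were 0.707 and 0.440 on the low side and 0.712 and 0.745 on the high side.

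Footprints followed the same order. The Pax7 window held 73 and 74, of which 35 in replicate 1 overlapped one in replicate 2, and stood above 58.3% and 52.8% of all windows. The Pax3 window held 20 and 6, of which 2 overlapped, and stood above 20.7% and 12.2%. Over the whole genome 59.8% of replicate 1 footprints overlapped one of replicate 2. Median widths were 10 and 12 bp at Pax7 and 8 and 10.5 bp at Pax3, against 11 bp in each library as a whole.

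Of 20 motifs searched on both strands in the 150 bp around each midpoint, some were more frequent at the 21 shared Pax7 sites than at all shared sites and some less. The E-box CAGCTG, a core bound by MYOD1 and related myogenic factors, was in 8 of them, or 38.1%, against 20.3% of all 94042 shared sites. The wider E-box CANNTG, which includes it, was in 66.7%, against 59.5%. The MEF3 element TCAGGTT, bound by the homeobox factor encoded by Six4, was in 2 of them, or 9.52%, against 1.77%, and the CTCF core was in 4, or 19%, against 10.4%. The PAX homeodomain palindrome and the paired-domain core GTCACGC were in none, against 0.05% and 0.959% of all shared sites. Also in none were the TEAD, ETS and AP-1 motifs, against 8.89%, 6.31% and 5.45%, and the RUNX motif was in 1, or 4.76%, against 9.37%. At the pair of shared Pax3 sites the only match was CANNTG, in each. These counts rest on few sites, and a match or its lack is a property of the letters only.

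CAGCTG lay within 5 bp of or inside 4 of 73 and 6 of 74 Pax7 footprints, 5.48% and 8.11%, against 2.80% and 3.53% of all footprints. Among the shared sites, 3 carried it in a footprint that overlapped one of the other library. Of these, 1 is the intron 8 site printed above, and the other two are intergenic sites 134700 and 135648 bp from the start, with 0.772 and 1.53 and with 0.881 and 2.09. All 3 were higher in replicate 2. At the site 135648 bp from the start only the replicate 2 footprint held the E-box, and the overlapping replicate 1 footprint lay beside it. The 3 matches are shown on the plus strand with 15 bp on each side and the E-box in capitals.
E-box at chr4:139747509-139747514: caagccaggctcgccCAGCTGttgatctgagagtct
E-box at chr4:139698927-139698932: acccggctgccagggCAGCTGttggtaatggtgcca
E-box at chr4:139697837-139697842: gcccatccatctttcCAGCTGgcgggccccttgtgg

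The shared Pax7 sites split between the libraries by motif and place. As log2 of replicate 1 over replicate 2, their median was −0.14, with a range of −1.49 to 0.86; 7 were higher in replicate 1 and 14 in replicate 2. All 4 with a CTCF core were higher in replicate 1, by 0.44 to 0.84, and 14 of the 17 without it were higher in replicate 2. Within the gene, promoter included, 10 of 11 were higher in replicate 2, with a median of −0.65. The same direction held genome-wide: shared sites had a median of −0.23, those with a CTCF core (9784 sites) 0.25 and those without it (84258 sites) −0.28, and 67.2% against 31.4% were higher in replicate 1. The direction at Pax7 was thus that of the libraries as a whole, but the size was not always typical. The 8 shared intron sites had a median of −0.86, below the lower quartile of −0.68 of all shared sites without a CTCF core. The 3 promoter sites had a median of −0.14. The 4 sites with a CTCF core had a median of 0.65, against an upper quartile of 0.59 for all such sites. The cause was not tested. The shared Pax3 sites had 0.68 and −0.16.

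**Figure D3:**
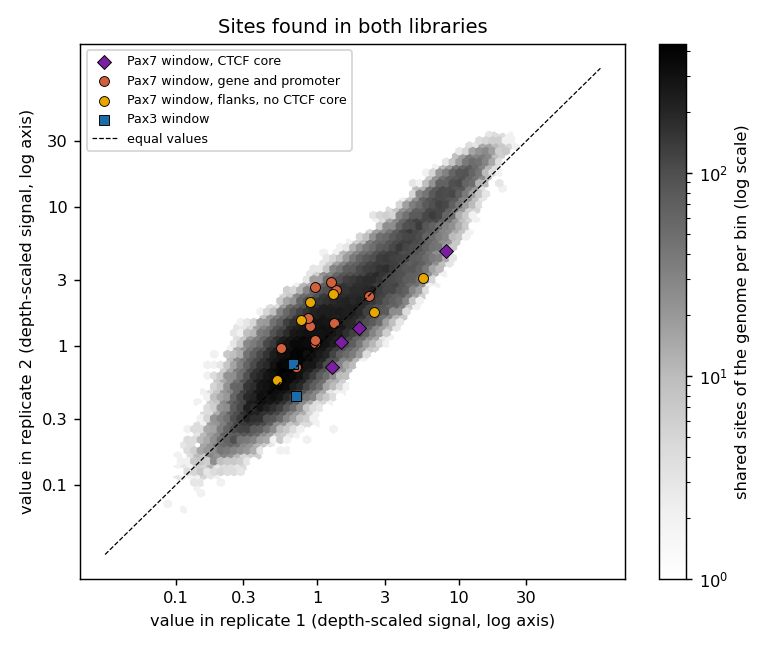
Value in replicate 1 against value in replicate 2, both as depth-scaled signal on log axes, for the sites found in both libraries; grey shows 94042 sites of the genome per bin, and coloured points the Pax7 and Pax3 windows. The 4 Pax7 sites with a CTCF core lie on the replicate 1 side of the line of equal values, and 10 of the 11 sites of the gene and promoter on the other side.

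Among the 9 PAX genes, 6 promoters were open in both libraries, or 66.7%, about the share of all genes. Pax5, the B-cell factor, led with 5.54 and 5.97, followed by Pax9 with 2.33 and 2.92. Pax1 (2.02 and 1.3), Pax6 (1.96 and 1.21) and Pax7 (1.32 and 1.46) came next and their ranges over the replicates overlapped. Pax2 had 1.23 and 1.10, a range that overlapped that of Pax6 but not that of Pax7. Pax3 had 0.680 and no peak, and Pax4 and Pax8 had no promoter peak in either library. The order of locus cover was different. Pax2 (3.49% and 2.43%) and Pax7 (2.51% and 2.70%) led and overlapped, and Pax3 was last (0.729% and 0.384%), below the range of every other PAX locus.

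**Figure D4:**
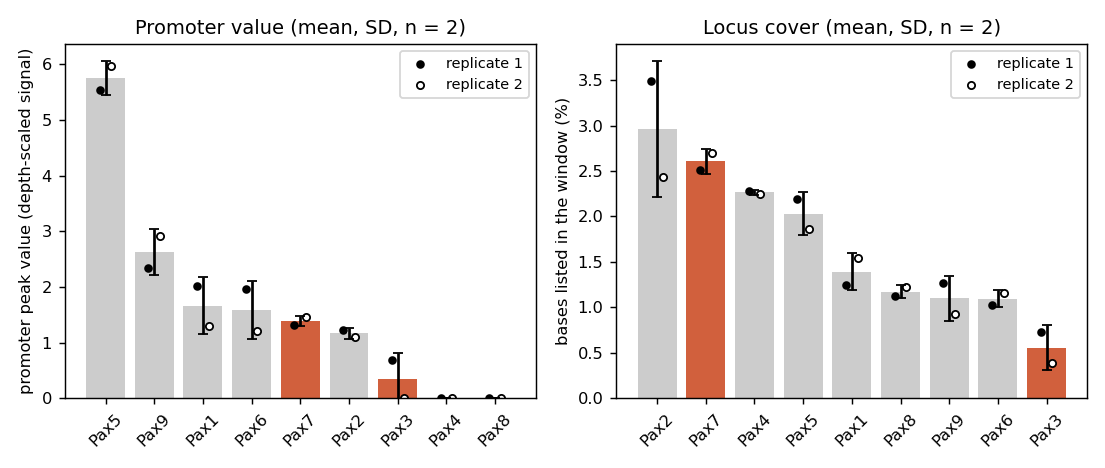
Promoter value (left, depth-scaled signal) and locus cover (right, % of window bases listed) of the 9 PAX genes, with bars for the mean, error bars for the SD (n = 2) and points for the replicates; Pax7 and Pax3 are coloured. By mean promoter value Pax7 lies between Pax6 and Pax2, and by mean cover Pax7 follows Pax2 while Pax3 is last.

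All 26 listed genes that act with PAX3 and PAX7 had promoters open in both libraries, against 66.0% of all genes. The 10 upstream and partner factors included Six4 (2.20 and 5.06), a homeobox factor that acts upstream of Pax3 in the embryo, and the forkhead genes Foxc1 (2.74 and 4.49) and Foxc2 (2.74 and 4.42). All 10 targets were open, led by Id3 (6.65 and 12.2), Myod1 (3.17 and 7.39), Plagl1 (3.31 and 5.80) and Dmrt2 (2.79 and 4.84). Myf5, the myogenic factor that PAX7 and PAX3 switch on, was the lowest target, at 0.653 and 0.927. All 6 cofactors were open. Carm1, a methyltransferase that modifies PAX7, had 13.9 and 26.2, Kmt2a 13.5 and 20.3, Wdr5 13.1 and 15.8 and Paxip1 10.6 and 15.7. The other cofactors were far lower, at 0.680 and 0.628 and at 0.625 and 0.569. The 26 genes had a median of 3.35 over the mean of both libraries, against 5.59 for all open genes.

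Promoters of marker genes were counted against the 66.0% of all genes that were open in both libraries. All 8 myofibre markers and all 14 satellite cell markers, Pax7 included, were open in both libraries; Hey1 (8.72 and 14.2) and Spry1 (8.07 and 11.1) led the second list, ahead of Megf10 (5.54 and 6.54) and Sdc4 (5.43 and 5.76), and Calcr was the lowest, at 0.555 and 0.516. Of the Schwann cell markers 7 of 9, or 77.8%, had an open promoter, not far from the share of all genes, with no promoter peak at Sox10, for example. Of the melanocyte markers only Mitf and Pmel, 2 of 7, were open, and Tyr, Dct, Mlana, Tyrp1 and Slc45a2 had no promoter peak, although each had peaks elsewhere in its window. Fibroblast promoters were open at 5 of 6, or 83.3%, with none at Ly6a. Of 6 genes of other tissues, Apob (0.343 and 0.223) and Ins2 (1.47 and 1.89) were open, and Alb and Krt5 were among those that were not. Ins2, the insulin gene, thus stood above Pax7 in both libraries, and an open promoter is not expression.

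By promoter value and locus cover, each as a percentile in both libraries, the genes most like Pax7 were Cfap43, Ccdc180 and Lrrc3, at distances of 1.69, 2.58 and 2.61 percentile points over these 4 measures, and 24 genes lay within 5 points. Cfap43 had 1.41 and 1.36 at its promoter, close to the values of Pax7. Those most like Pax3 were the clustered protocadherins Pcdhb21, Pcdhb7 and Pcdhb2, at 2.78, 3.20 and 3.48, with 11 genes within 5 points. All 3 had, like Pax3, a low promoter peak in replicate 1, of 0.522, 0.631 and 0.479, and none in replicate 2. Promoter values entered the choice of these genes and of Cfap43, so their closeness is no further likeness.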

How the data were processed

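DNase-seq of 2 gastrocnemius samples was used, grouped by their labels as 1 group of 2 replicates. The wider and stricter peak lists, footprints and per-base FDR values were made by the authors per library on mm10, per the file headers and labels; names of aligner and peak caller were not given in the sources used here. Peak signal, as deposited, is scaled to depth, and 100% of values were whole multiples of 1 step (tolerance 0.05), from which tags were computed with 95% exact Poisson intervals. How wide a stretch each tag count covers was likewise unstated there. The deposited FDR, a p-value corrected for multiple tests, is listed per base under 0.05; footprints carry a constant deposited value of 0.01, so only positions were used.

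Computed here, with Python 3.11.15, numpy 2.4.6, pandas 2.3.3, scipy 1.17.1 and matplotlib 3.10.9, were promoter values, window counts, cover, percentiles over 21853 genes (those with no peak ranked lowest) and motif matches. The ratio of the libraries is written as replicate 1 over replicate 2. The scripts were tested on simulated data. The motifs not spelled out in the results were CATTCC (TEAD), the full NFI site, TTGGCA (1 arm of it), TGANTCA (AP-1), MEF2, CArG, TGGGAA (RBPJ), CATTGT (SOX), GGGCGG (SP/KLF), TGTGGT (RUNX), CCGGAA (ETS), TGACGTCA (CRE), NRF1 and TAATTA (homeodomain); CAGCTG overlaps CANNTG, and TTGGCA can overlap the full NFI site.

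Members and gene lists were chosen with earlier results of these data known. Named sites were those at a promoter, the 6 shared sites of highest geometric mean and at most 6 other shared sites with a motif in, or within 5 bp of, a footprint found in both libraries; the intron 7 site at 61988 bp was added after its values were seen; of a list, genes were named from the 4 highest and those without a peak, and Myf5, Calcr, Apob and Ins2 were added after their values were seen. The values of the low cofactors, which are not named, were also added after they were seen. Likeness was the Euclidean distance over 4 percentiles. Some listed genes are counted but not reported by name here.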

Additional observations from a re-analysis of the deposited data

How the results depend on the processing

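Of 54 values recomputed under other settings, 39 moved by less than the spread between replicates or, for counts, stayed within 1.5 times. This count is no measure of robustness. For promoter values, promoter percentiles and cover, leaving out 1 library of a pair always moves the mean by less than the SD. At the Pax3 promoter the SD of 0.481 exceeded the mean of 0.340, so even a value of 0 was counted as unmoved. With the stricter peaks the Pax3 window held 0.338 shared peaks per 100 kb; with flanks of 10000 bp it held 0, and 0 footprints in both libraries. With 1 library left out nothing can be shared, so all peaks and footprints of the other library were counted, which is another measure. Pax3 then had 2.37 to 3.38 peaks per 100 kb and 6 to 20 footprints, and Pax7 73 to 74 footprints. The Pax3 promoter had no peak in the stricter set, in which 61.8% of all promoters were open in both libraries, nor without replicate 1. Requiring an FDR under 0.001 gave a cover of 0.10005% for Pax3 and 1.49% for Pax7. Flanks of 10000 bp gave Pax7 a cover of 3.58% and 14 footprints in both libraries. The Pax7 promoter percentile was 43.8 with 1000 bp on either side of the start and 44.2 with the starts of all transcripts. Except where fewer bases or libraries enter, the cause was not tested. No paired analysis was possible because there was 1 group only. Tag counts limit the low Pax3 peaks most: 36 to 131 tags lay behind each.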
